A study of Mus musculus with 4 samples.

Results

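The Hox genes of the mouse are homeobox genes arranged in 4 clusters, and all 39 of them were present among the 24428 genes of the count tables. Members were taken by symbol alone, as Hox followed by a cluster letter from a to d and a paralogue number, which gave 11 Hoxa genes on chromosome 6, 10 Hoxb genes on chromosome 11, 9 Hoxc genes on chromosome 15 and 9 Hoxd genes on chromosome 2. RNA-seq had been carried out on mouse embryonic stem (ES) cells of the 129SvEv strain at passage 15 to 20, which were kept untreated in serum medium with LIF, the cytokine that holds these cells undifferentiated. In the G784E group (2 libraries), the V5-tagged allele of Smarca4 carried the G784E change. In the WT group (2 libraries), the V5-tagged allele was wild type. Cells of both groups also carried a wild-type Smarca4 allele tagged with GFP, so G784E cells were heterozygous. Smarca4 encodes the ATPase of the BAF chromatin-remodelling complex. The labels name neither the number of clones behind a group nor the origin of its replicates, so separate cultures are not documented. The p-values given here measure only how far these libraries differ, and that spread may be technical.

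Hox genes encode transcription factors that give cells their position along the head-to-tail axis. Within a cluster they lie in the order in which they are switched on, from anterior genes with low paralogue numbers to posterior genes with high ones, and genes with the same number in different clusters are paralogues of one ancestral gene. In undifferentiated ES cells the clusters are known to be held near silence by Polycomb complexes, and retinoic acid, Wnt signals and Cdx factors open them when the cells differentiate. BAF complexes are known to oppose Polycomb at many promoters.

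Reads counted in genes numbered 6226145 and 8895433 for G784E and 7027108 and 10083442 for WT. In CPM, which sets a library's TMM-scaled total to 1000000, 1 read was worth 0.164 and 0.118 in G784E and 0.132 and 0.102 in WT. Across all genes, 298 of 15763 tested genes were lower and 106 higher in G784E at an adjusted p under 0.05 (edgeR, Benjamini-Hochberg over all tested genes). The markers fixed for stem cells were abundant, with a summed level of 1922 and 2095 CPM in G784E and 1650 and 1873 CPM in WT, and edgeR, DESeq2 and limma-voom called 0 of 7. An unadjusted edgeR p under 0.05 was found for 1 of them (14.3%), beside 11.6% of all tested genes. Of 5 endoderm markers, 4 fell in G784E (Sox17, Gata6, Gata4 and Dab2), and their list summed to 30.4 and 32.2 CPM in G784E against 338.4 and 354 CPM in WT. In bulk RNA, fewer cells of a type and less RNA per cell cannot be told apart. Smarca4 itself stood at 3868 and 3580 CPM in G784E and 2423 and 2553 CPM in WT, a log2 fold change of 0.58 (SE 0.19, edgeR adjusted p = 0.119). DESeq2 (adjusted p = 0.00808), limma-voom (0.0300) and edgeR with upper-quartile scaling (0.0108) called Smarca4 higher. The counts do not separate its alleles, so Smarca4 does not check the labels.

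Replicate 1 of each group carried more reads on genes that ES cells are not known to use. The 1125 olfactory receptor genes summed to 697.5 and 295.5 CPM in replicates 1 and 2 of G784E and to 634.6 and 197.4 CPM in replicates 1 and 2 of WT. The 330 vomeronasal receptor genes summed to 98.2 and 53.1 CPM in G784E and 99.2 and 32.3 CPM in WT. The Hox genes followed the replicate number in the same direction. Their summed level was 69.7 and 21.2 CPM in replicates 1 and 2 of G784E, against 72.4 and 29.7 CPM in WT. Replicate 1 thus stood 3.29-fold above replicate 2 in G784E and 2.44-fold in WT, beside 2.36-fold and 3.22-fold for the olfactory receptors. Pou5f1, the stem cell factor Oct4, ran the other way, with ratios of 0.819 in G784E and 0.737 in WT. The shift was spread over the members: 32 of 39 Hox genes were higher in replicate 1 of G784E, 36 of 39 in replicate 1 of WT, and 31 (79.5%) in both groups. The share that was higher in replicate 1 of both groups was 46.6% for the olfactory receptors, which have fewer reads per gene and so more ties at 0, and 32.9% for all tested genes. Fibroblasts also express Hox genes, and the 11 fibroblast markers, of which none was at 0 in all 4 libraries, summed to 99.2 and 84.8 CPM in G784E and 101.5 and 69.3 CPM in WT. The markers did not move together. In G784E, Col1a1 stood at 52.2 and 36.8 CPM, and Col3a1, Lum, Twist2, Pdgfrb and Fap were also higher in replicate 1. Col1a2, Postn, Dcn, Prrx1 and Thy1 were higher in G784E replicate 2. In WT, Dcn, Twist2 and Thy1 were higher in replicate 2 and the others in replicate 1. The part of background reads, or of other cells, in the replicate difference was not tested.

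**Figure D1:**
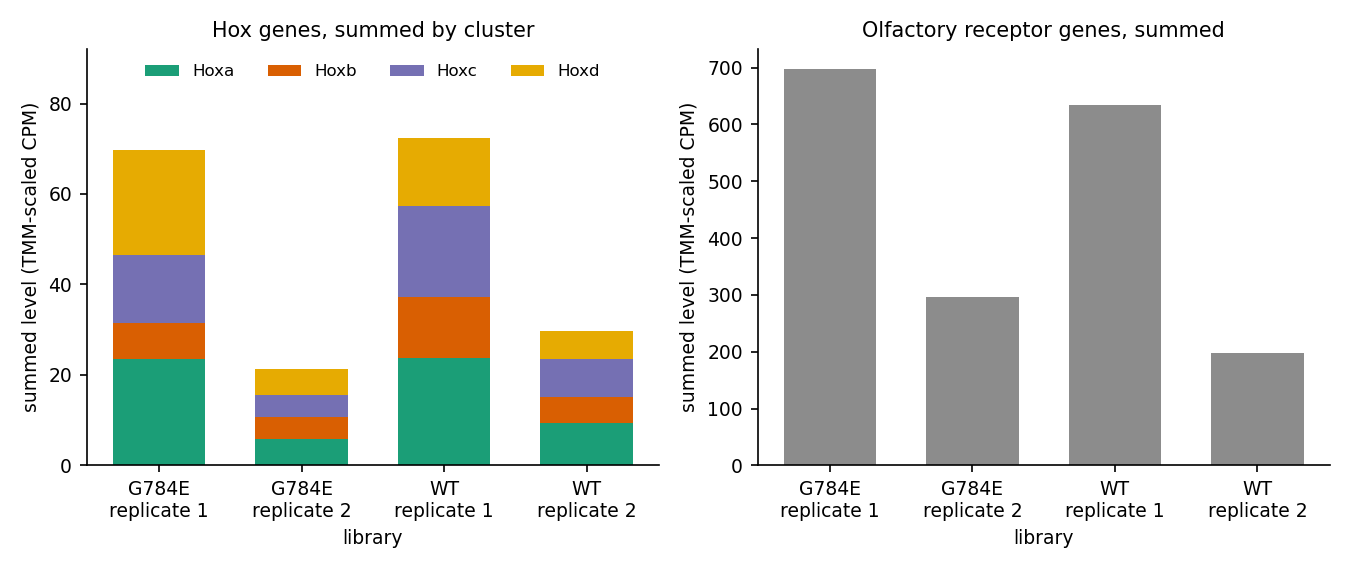
Summed level of the Hox genes, stacked by cluster (left), and of the olfactory receptor genes (right), in TMM-scaled CPM, with 1 bar per library. In both panels the replicate 1 bar is the taller one in each genotype: 69.7 against 21.2 CPM for Hox genes in G784E, and 72.4 against 29.7 CPM in WT.

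Hox transcripts were scarce in every library. The 39 genes together received 426 and 180 reads in G784E and 548 and 292 in WT, and no member received more than 35 and 16 reads in G784E or 47 and 31 in WT. Their share of all gene counts was 0.00684% in G784E replicate 1 (95% Wilson interval 0.00622% to 0.00752%) and 0.00202% in G784E replicate 2 (0.00175% to 0.00234%). In WT it was 0.00780% (0.00717% to 0.00848%) and 0.00290% (0.00258% to 0.00325%). These intervals cover counting error only. The median Hox gene had 7 and 2 reads in G784E and 12 and 6 in WT, where the median over all genes was 20 and 17 in G784E and 26 and 21 in WT. Reads were found for 37 and 34 of the 39 genes in G784E and 38 and 35 in WT. A count of 0 allows up to 3 reads, which is 0.491 and 0.353 CPM in G784E and 0.396 and 0.305 CPM in WT.

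Set beside the olfactory receptors per length of exon, most Hox genes stood above the background median and fewer stood clear of its upper end. The median olfactory receptor had 0.122 and 0.0400 CPM per kb in G784E and 0.130 and 0.0269 CPM per kb in WT, and the median Hox gene had 0.514 and 0.106 CPM per kb in G784E and 0.538 and 0.209 CPM per kb in WT. Of the 39 Hox genes, 35 and 33 in G784E and 36 and 34 in WT exceeded the median olfactory receptor of the same library. The 95th percentile of the olfactory receptors, at 0.899 and 0.482 CPM per kb in G784E and 0.856 and 0.310 CPM per kb in WT, was exceeded by 14 and 4 Hox genes in G784E and by 13 and 15 in WT. Divided by coding length instead, a scale added after the data were seen, 14 and 8 Hox genes in G784E and 19 and 18 in WT were above it. Hoxd13 was the one member above the 95th percentile in all 4 libraries, at 2.24 and 0.759 CPM per kb in G784E and 2.45 and 1.27 CPM per kb in WT. Of the members, 5 were above it in 3 libraries, Hoxa11, Hoxb9, Hoxc10 and Hoxc13 among them, 7 in 2, 13 in 1 and 13 in none. Among the 1114 olfactory receptors with an exon length, 4 were above it in all 4 libraries, beside 1 of the 39 Hox genes. For scale, Pou5f1 had 83.4 and 102 CPM per kb in G784E and 78.3 and 106 CPM per kb in WT.

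**Figure D2:**
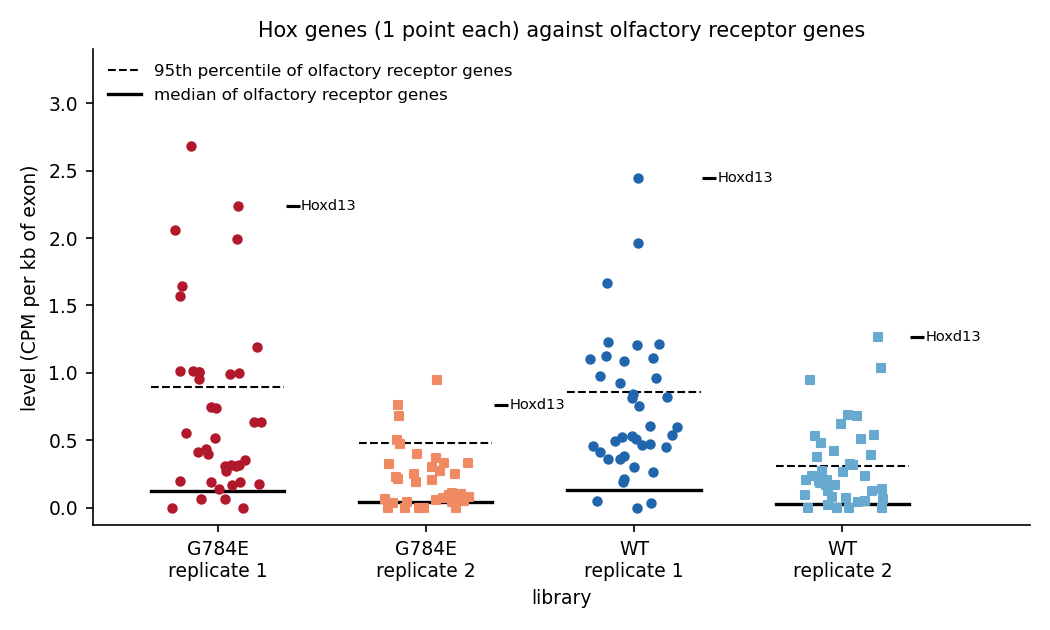
Level of each Hox gene (1 point per gene, in CPM per kb of exon) in each library, beside the median (solid line) and 95th percentile (dashed line) of the olfactory receptor genes of that library; Hoxd13 is marked. In G784E replicate 2, 4 Hox genes are above the dashed line, against 14, 13 and 15 in G784E replicate 1 and the 2 WT libraries.

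Promoters of 3 members are shown here, from RefSeq on GRCm38.p6, as the 250 bases before and 50 bases after the start of the gene, with every CpG in capitals. Hoxd13 is the member with the most reads, Hoxd1 is the one whose G784E libraries were both above both WT libraries, and Hoxb1 is an anterior gene whose G784E libraries were both below. Hoxd13 lies at chr2:74667975-74668274, Hoxd1 at chr2:74762730-74763029 and Hoxb1 at chr11:96365508-96365807, all on the plus strand.
Hoxd13: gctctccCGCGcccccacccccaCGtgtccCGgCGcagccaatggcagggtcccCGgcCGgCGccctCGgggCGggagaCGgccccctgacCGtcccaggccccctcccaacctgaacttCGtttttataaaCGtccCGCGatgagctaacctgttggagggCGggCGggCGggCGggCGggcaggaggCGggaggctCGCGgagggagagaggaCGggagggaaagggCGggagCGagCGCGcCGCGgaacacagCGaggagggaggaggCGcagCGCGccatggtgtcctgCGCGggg
Hoxd1: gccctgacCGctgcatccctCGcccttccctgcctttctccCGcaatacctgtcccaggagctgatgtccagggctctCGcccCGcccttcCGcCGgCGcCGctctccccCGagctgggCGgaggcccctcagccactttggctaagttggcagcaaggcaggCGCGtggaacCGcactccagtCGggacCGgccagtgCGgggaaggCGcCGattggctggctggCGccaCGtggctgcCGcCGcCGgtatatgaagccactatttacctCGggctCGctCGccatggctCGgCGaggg
Hoxb1: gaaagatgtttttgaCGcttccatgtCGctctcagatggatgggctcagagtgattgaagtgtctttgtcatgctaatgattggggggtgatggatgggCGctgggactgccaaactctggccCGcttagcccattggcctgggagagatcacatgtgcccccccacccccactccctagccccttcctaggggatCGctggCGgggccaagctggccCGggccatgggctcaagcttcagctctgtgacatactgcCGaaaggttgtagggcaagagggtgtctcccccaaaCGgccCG
The Hoxd13 window holds 37 CpGs at a GC content of 74.3%, the Hoxd1 window 29 at 69.7% and the Hoxb1 window 10 at 59.3%. The ratio of observed to expected CpGs was 0.904 for Hoxd13, 0.805 for Hoxd1 and 0.380 for Hoxb1, so the first pair keep most of the CpGs their composition allows. Dense CpGs are the setting in which Polycomb complexes are known to be recruited in ES cells.

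Windows of the same length were given for 24 starts of 22 Hox genes, and these were compared with all 32851 windows. From the Hoxb cluster they hold only Hoxb1, Hoxb4 and Hoxb8, and from the Hoxc cluster only Hoxc4. The Hox shares are therefore mainly those of Hoxa and Hoxd genes. Median CpG number was 14.5 in Hox promoters and 7 in all promoters, and 45.8% of Hox promoters against 33.5% of all promoters had a GC content of at least 50% with a CpG ratio of at least 0.6. The Hox-Pbx motif TGATNNAT, the joint site of a Hox protein and its Pbx cofactor, was searched on both strands and lay in 4 of 24 Hox windows (16.7%) against 8.85% of all windows. The 4 were Hoxb1, with TGATGGAT 162 bases before the start on the gene's strand, and Hoxa2, Hoxd11 and Hoxb8, with matches on the other strand. The TATA box letters TATAAA, searched the same way anywhere in the window, lay in 16.7% of Hox and 13.6% of all windows. The Hox matches lay 124 and 126 bases before the start in Hoxd13, 110 and 199 in Hoxb8, 160 in Hoxa10 and 10 in Hoxd4. Only the Hoxd13 match at 124 bases was on the gene's strand. Neither motif holds the other, though matches can share bases at their ends. A match is a description of letters and not evidence of binding.

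No Hox gene passed the test between G784E and WT. Of the 39 members, 18 had enough reads to enter it, and edgeR called 0 of them lower, where 1.89% of all tested genes were lower, and 0 higher, where 0.672% of all tested genes were higher. None of the 18 had an unadjusted edgeR p under 0.05, where 11.6% of all tested genes did. The smallest was 0.288, and limma-voom likewise called 0. DESeq2 gave an adjusted p for 1 of the 18 (Hoxd13, 0.968), so its count of 0 says nothing of the others. Fitted log2 fold changes were negative for 11 and positive for 7, with a median of -0.13 against 0.00 over all tested genes. Their standard errors ran from 0.69 to 1.54, with a median of 1.24 where the median tested gene had 0.336. At these depths the 95% interval of Hoxd13, the most precise member, ran from -1.75 to 1.11. Log2 differences anywhere inside that interval are compatible with its counts. Leaving out 1 library changed the sign of 15 of the 18 fold changes. Hoxa10 and Hoxc8 were among the 3 that kept theirs. Such fits leave replicate numbers unbalanced between the groups, so the turns cannot be told apart from the replicate difference.

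**Figure D3:**
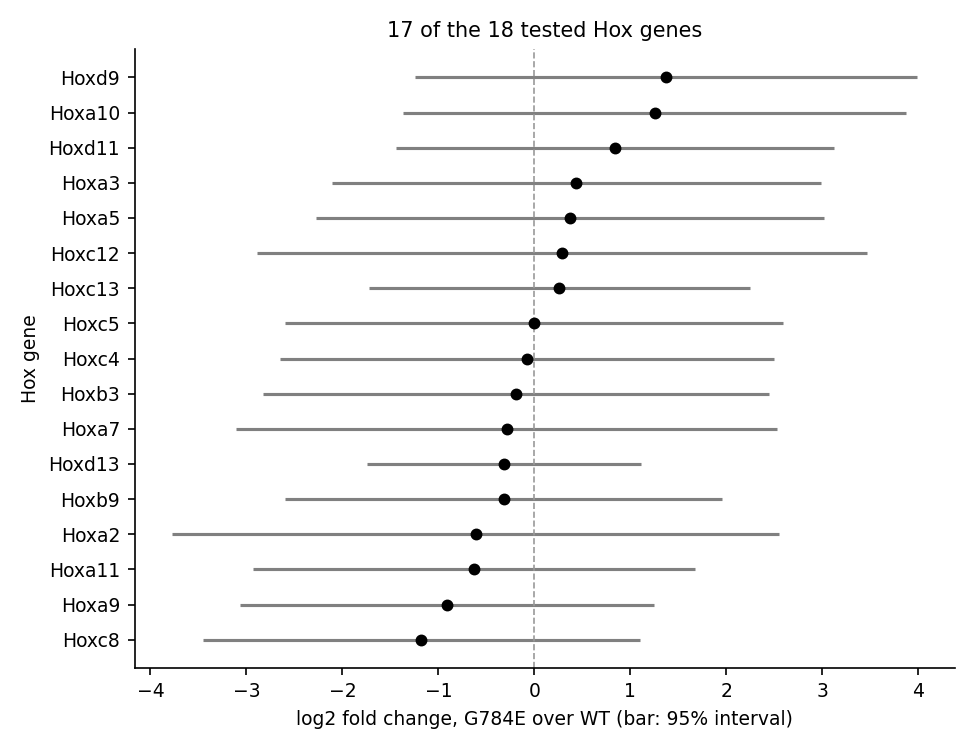
Fitted log2 fold change of G784E over WT for 17 of the 18 tested Hox genes (points) with 95% intervals (bars), ordered by fold change. Every interval includes 0, from Hoxd9 at 1.38 to Hoxc8 at -1.18.

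Counted over all members, both G784E libraries were below both WT libraries for 7 of 39 Hox genes (17.9%), beside 17.9% of all 23193 genes with at least 1 read. Among the 7 were Hoxb1, Hoxb5, Hoxc6, Hoxc8, Hoxc9 and Hoxd4, and 3 of them lie in the Hoxc cluster. Both G784E libraries were above both WT libraries for 1 Hox gene (2.56%), Hoxd1, beside 16.1% of all genes. Among the 12227 genes whose mean level lay in the Hox range, the shares were 14.6% lower and 9.32% higher, and among 1066 olfactory receptors they were 9.48% lower and 13.3% higher. The share of Hox genes that was lower was thus the share of all genes. Hoxb1, Hoxb5, Hoxc6, Hoxc9, Hoxd1 and Hoxd4 were singled out after their values were seen.

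Seen as sums, the Hox genes differed between genotypes by less than the spread between replicates. All 39 averaged 45.5 ± 34.3 CPM in G784E and 51.0 ± 30.2 CPM in WT (SD, n = 2 each), a ratio of 0.891, and the ratio was 0.963 within replicate 1 and 0.715 within replicate 2. The direction turned with single libraries: on the log2 scale the ratio was -0.17 with all 4, -1.27 without G784E replicate 1, 0.45 without G784E replicate 2, 0.62 without WT replicate 1 and -0.67 without WT replicate 2. Without 1 library, a single replicate of a group is set against the mean of both in the other. Replicate 1 was higher in both groups, so these turns cannot be told apart from the replicate difference. Set against olfactory receptor reads of the same library, Hox reads came to 0.0999 and 0.0717 in G784E and 0.114 and 0.150 in WT. On this scale both G784E libraries were below both WT libraries. The Hoxa, Hoxb and Hoxc sums were lower in the same way. The Hoxd sums overlapped, at 0.0333 and 0.0191 in G784E and 0.0235 and 0.0314 in WT. The receptor level was itself higher in G784E, at 697.5 against 634.6 CPM in replicate 1 and 295.5 against 197.4 CPM in replicate 2. Its part in the lower ratios was not tested. By position in the cluster, the 8 anterior genes (paralogue groups 1 to 3) summed to 9.98 and 6.24 CPM in G784E and 11.4 and 6.30 CPM in WT. The 15 central genes (groups 4 to 8) summed to 20.1 and 5.42 CPM in G784E and 25.0 and 10.5 CPM in WT. The 16 posterior genes (groups 9 to 13) summed to 39.6 and 9.54 CPM in G784E and 36.1 and 12.9 CPM in WT. The 3 classes thus each showed the fall between replicates 1 and 2, and in each the groups overlapped.

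Single paralogue groups varied more, on fewer reads. Group 6, made of Hoxa6, Hoxb6 and Hoxc6, had 10 and 2 reads in G784E against 34 and 16 in WT, and its ratio of G784E over WT was 0.364 within replicate 1 and 0.145 within replicate 2. In CPM its groups still overlapped by a little, at 1.64 and 0.236 in G784E and 4.49 and 1.62 in WT, and none of its members entered the test. Group 10, made of Hoxa10, Hoxc10 and Hoxd10, had 37 and 21 reads in G784E and 30 and 16 in WT, with ratios of 1.53 and 1.52 within replicates 1 and 2. Its G784E and WT libraries overlapped all the same, at 6.05 and 2.47 CPM in G784E and 3.96 and 1.62 CPM in WT. Groups 9 and 13, which pattern the posterior trunk and the ends of the limbs, followed the replicate number too. Group 9 summed to 11.5 and 1.89 CPM in G784E and 13.7 and 2.84 CPM in WT, and group 13 to 11.5 and 3.65 CPM in G784E and 9.77 and 5.99 CPM in WT.

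**Figure D4:**
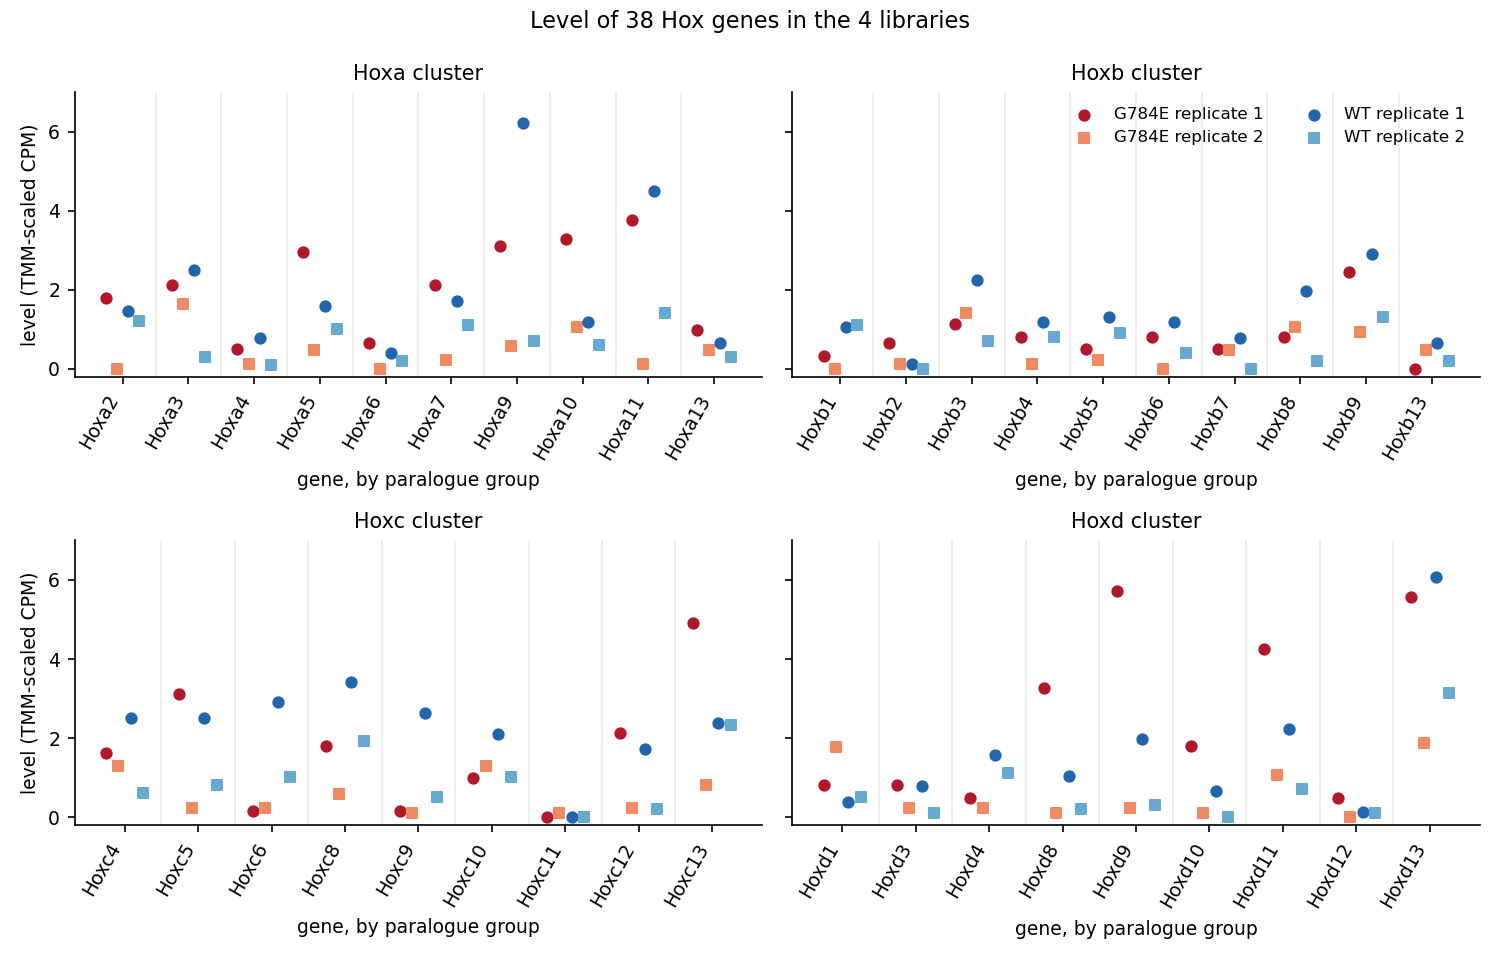
Level of 38 of the 39 Hox genes in TMM-scaled CPM, by cluster and paralogue group, with 1 point per library (circles replicate 1, squares replicate 2; reds G784E, blues WT). Of all 39 genes, 32 were higher in replicate 1 than in replicate 2 in G784E and 36 in WT, and the highest point is Hoxa9 in WT replicate 1, at 6.21 CPM.

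The Hoxa cluster summed to 23.6 and 5.77 CPM in G784E and 23.8 and 9.34 CPM in WT, with ratios of 0.991 within replicate 1 and 0.618 within replicate 2, and 8 of its 11 genes entered the test. Hoxa9, a posterior gene that is also active in blood stem cells, had 19 and 5 reads in G784E and 47 and 7 in WT. Its WT replicate 1 was the highest of all Hox counts, and in both genotypes Hoxa9 was higher in replicate 1 than in replicate 2, so the groups overlapped. Hoxa9 had a log2 fold change of -0.91 (SE 1.04, edgeR adjusted p = 0.903). Hoxa11, which acts in the developing limb, kidney and uterus, had 23 and 1 reads in G784E and 34 and 14 in WT. Here G784E replicate 2 stood apart as the low library, and the log2 fold change was -0.63 (SE 1.12, edgeR adjusted p = 0.975). Without G784E replicate 1 the Hoxa11 estimate became -4.47 and its unadjusted p fell under 0.05, while the adjusted p was 0.198. Exons of Hoxa11 share 35.0% of their length with the antisense gene Hoxa11os. The counting mode and strand are not given, so how reads in the shared stretch were assigned is not known.

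Hoxa10, which patterns the lumbar region and the uterus, had 20 and 9 reads in G784E and 9 and 6 in WT. Its G784E replicate 1 was the high library, G784E replicate 2 lay slightly under WT replicate 1 in CPM (1.06 and 1.19), and the log2 fold change was 1.25 (SE 1.27, edgeR adjusted p = 0.870). Among the other tested Hoxa genes, Hoxa2, Hoxa3, Hoxa5 and Hoxa7 had log2 fold changes of -0.61, 0.44, 0.37 and -0.29 and standard errors between 1.23 and 1.53. Hoxa4, Hoxa6 and Hoxa13 had between 0 and 6 reads in each library and were not tested.

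The Hoxb cluster summed to 8.02 and 4.83 CPM in G784E and 13.5 and 5.69 CPM in WT, with ratios of 0.595 within replicate 1 and 0.849 within replicate 2. Its difference between replicates 1 and 2 was the smallest of the 4 clusters in G784E, and 2 of its 10 genes were tested. Hoxb9, which patterns the rib cage, had 15 and 8 reads in G784E and 22 and 13 in WT, and Hoxb3, a gene of the hindbrain and pharyngeal arches, had 7 and 12 in G784E and 17 and 7 in WT. The log2 fold changes were -0.32 for Hoxb9 (SE 1.10) and -0.19 for Hoxb3 (SE 1.28), and in both genes the groups overlapped. Hoxb8, known from myeloid progenitors and grooming behaviour, had 5 and 9 reads in G784E and 15 and 2 in WT and was not tested.

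In Hoxb1 and Hoxb5, both G784E libraries lay below both WT libraries. Hoxb1, which gives the facial motor territory of the hindbrain its identity and is known to maintain its own expression with Pbx, had 2 and 0 reads in G784E and 8 and 11 in WT. Both G784E values are within what a count of 0 allows, and the Hoxb1 mean was 0.164 ± 0.231 CPM in G784E and 1.09 ± 0.0427 CPM in WT (SD, n = 2 each). Hoxb5, a gene of the neck and shoulder region and of enteric nerves, had 3 and 2 reads in G784E and 10 and 9 in WT. Its antisense neighbour Hoxb5os, which shares 100 bases of exon with it, had 0 and 0 reads in G784E and 4 and 6 in WT. How reads in the shared bases were assigned is likewise not known. Hoxb2, Hoxb4, Hoxb6, Hoxb7 and Hoxb13 had between 0 and 9 reads in each library.

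The Hoxc cluster summed to 14.9 and 4.95 CPM in G784E and 20.2 and 8.43 CPM in WT, with ratios of 0.737 within replicate 1 and 0.587 within replicate 2, and 5 of its 9 genes were tested. Hoxc8, which sets the identity of thoracic vertebrae and of motor neurons at limb level, had 11 and 5 reads in G784E and 26 and 19 in WT. In CPM it stood at 1.8 and 0.589 in G784E and 3.43 and 1.93 in WT, so the groups did not overlap, though G784E replicate 1 and WT replicate 2 nearly met. Its log2 fold change was -1.18 (SE 1.10, 95% interval -3.46 to 1.10, edgeR adjusted p = 0.845) and stayed between -2.14 and -0.55 when 1 library was left out. Hoxc13, the hair and nail gene, had 30 and 7 reads in G784E and 18 and 23 in WT, where G784E held both the highest and the lowest library. Hoxc13 had a log2 fold change of 0.26 (SE 0.96) and Hoxc5, with 19 and 2 reads in G784E and 19 and 8 in WT, one of -0.01 (SE 1.25).

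Hoxc6 and Hoxc9, which were too low to be tested, showed the widest separation of G784E from WT in the Hoxc cluster. Hoxc6, a thoracic gene, had 1 and 2 reads in G784E and 22 and 10 in WT. Hoxc9, which gives thoracic motor neurons their identity, had 1 and 1 reads in G784E and 20 and 5 in WT. Both were at or under the limit of a count of 0 in each G784E library, while in WT they were above it. With no filter on low counts, Hoxc6 had a log2 fold change of -3.19 (SE 1.50, unadjusted p = 0.0334, edgeR adjusted p = 0.550) and Hoxc9 one of -3.38 (SE 1.68, unadjusted p = 0.0440, edgeR adjusted p = 0.640). They were the 2 of 39 Hox genes with an unadjusted p under 0.05 in that fit, and neither was called. Of the remaining Hoxc genes, Hoxc4 and Hoxc12 were tested, with log2 fold changes of -0.08 and 0.29 (SE 1.25 and 1.54). Hoxc10, with 6 and 11 reads in G784E and 16 and 10 in WT, was not tested, and Hoxc11 had a single read in all 4 libraries, in G784E replicate 2. Hoxc5 and Hoxc10 share 166 bases of exon on one strand.

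The Hoxd cluster summed to 23.2 and 5.65 CPM in G784E and 14.9 and 6.19 CPM in WT, and was the one cluster whose ratio within replicate 1, 1.56, was above 1. Within replicate 2 that ratio was 0.913, and without G784E replicate 1 the log2 ratio of the sums, 0.45 with all libraries, was -0.90. The excess in G784E replicate 1 lay in the neighbouring genes from Hoxd8 to Hoxd11. Hoxd9, which acts in the lumbar region and the limb, had 35 and 2 reads in G784E and 15 and 3 in WT, Hoxd8 had 20 and 1 in G784E and 8 and 2 in WT, and Hoxd10 had 11 and 1 in G784E and 5 and 0 in WT. In each of these 3 genes the order of the libraries was G784E replicate 1, then WT replicate 1, with both replicate 2 libraries near or at 0. Hoxd11, which forms the lower forelimb and the kidney together with Hoxa11, had 26 and 9 reads in G784E and 17 and 7 in WT. Hoxd9 had a log2 fold change of 1.38 (SE 1.27, 95% interval -1.24 to 3.99, edgeR adjusted p = 0.838), the smallest p among the 18 Hox genes of the filtered fit, and Hoxd11 one of 0.84 (SE 1.10, edgeR adjusted p = 0.937). Without G784E replicate 1 these became -2.18 for Hoxd9 and -0.45 for Hoxd11, without G784E replicate 2 they were 2.35 and 1.55, and without WT replicate 1 they were 3.21 and 1.86.

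Hoxd13, which shapes the digits and the genital tubercle, was the member with the most reads, 34 and 16 in G784E and 46 and 31 in WT. Its level was 5.56 and 1.89 CPM in G784E and 6.07 and 3.15 CPM in WT, so the groups overlapped, with WT higher within each replicate. The Hoxd13 log2 fold change was -0.32 (SE 0.69, edgeR adjusted p = 0.989). Hoxd4, a gene of the hindbrain and upper neck, had 3 and 2 reads in G784E and 12 and 11 in WT, with no overlap between the groups. Hoxd3 and Hoxd4 share 388 bases of exon on one strand, and Hoxd3 had 5 and 2 reads in G784E and 6 and 1 in WT. Hoxd1, the anterior end of the cluster and in mice a gene of pain-sensing neurons, had 5 and 15 reads in G784E and 3 and 5 in WT. In CPM, Hoxd1 stood at 0.818 and 1.77 in G784E and 0.396 and 0.508 in WT, and it was the one member that was higher in replicate 2 than in replicate 1 in both genotypes. Hoxd12 had at most 3 reads in any library.

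Many of the factors that act on or with Hox genes were much better covered than the Hox genes themselves, while others were as scarce. In the retinoid list, 17 of 18 genes were tested and 2 rose in G784E, where 0.672% of all tested genes were higher, both of them nuclear receptors that bind retinoic acid and act at Hox enhancers. Rara was at 108.6 and 96.6 CPM in G784E and 51.1 and 58.5 CPM in WT, and Rarg at 98.3 and 77.5 CPM in G784E and 30.8 and 49.9 CPM in WT, so neither gene's groups overlapped. The log2 fold changes were 0.90 for Rara (SE 0.21, edgeR adjusted p = 0.0134) and 1.12 for Rarg (SE 0.24, edgeR adjusted p = 0.00697), and DESeq2 and limma-voom called both. The size of both changes, and whether each gene was called, depended on the WT libraries. Without WT replicate 1 the log2 fold change was 0.81 for Rara and 0.82 for Rarg. Without WT replicate 2 it was 1.00 for Rara and 1.51 for Rarg. The median over the 17 tested retinoid genes was 0.23, and 5 had an unadjusted p under 0.05 (29.4%), where 11.6% of all tested genes did. Among those not called, Stra6, the cell-surface carrier of retinol, had 15 and 17 reads in G784E and 41 and 61 in WT, and Cyp26a1, which breaks down retinoic acid, had 7 and 1 in G784E and 14 and 25 in WT.

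Of 9 TALE homeobox genes, the Pbx, Meis and Pknox cofactors that bind DNA with Hox proteins, all were tested and edgeR and limma-voom called 0, as did DESeq2 among the 8 it gave an adjusted p. Only 1 (11.1%) had an unadjusted edgeR p under 0.05, beside 11.6% of all tested genes. That gene was Meis3, with 14 and 6 reads in G784E and 76 and 47 in WT, a log2 fold change of -2.33 (SE 0.71, edgeR adjusted p = 0.0930). Both G784E libraries were below both WT libraries for Meis3, but its call depended on the setting and on single libraries. Its edgeR adjusted p was 0.0440 with no filter on low counts and 0.00247 without G784E replicate 1, against 0.210 without G784E replicate 2, 1.00 without WT replicate 1 and 0.117 without WT replicate 2, and limma-voom gave 0.225. The list's median log2 fold change was -0.36.

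Among 15 further factors of axial patterning, 9 were tested and 0 called by edgeR, limma-voom or DESeq2, which gave an adjusted p for 5, with 0 at an unadjusted p under 0.05 and a median of -0.05. The smallest p was that of Lin28a, an RNA-binding protein of early embryos, with a log2 fold change of -0.39 (SE 0.20, edgeR adjusted p = 0.455). The Cdx genes, which open central Hox genes in the tail bud, were as scarce as the Hox genes, and of the 6 ParaHox genes only Cdx2 entered the test, with 20 and 3 reads in G784E and 21 and 5 in WT. Its log2 fold change was 0.13 (SE 1.27), and it too was higher in replicate 1 of both groups. T, the founding gene of posterior mesoderm, had 13 and 9 reads in G784E and 2 and 5 in WT and was not tested.

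All 22 Polycomb and trithorax genes of the list were tested, and edgeR called 0, with a median of 0.18. An unadjusted edgeR p under 0.05 was found for 3 (13.6%), where 11.6% of all tested genes had one. DESeq2, with an adjusted p for 20, also called 0 and limma-voom called 1, Pcgf2, a subunit of Polycomb complex PRC1. Pcgf2 had a log2 fold change of 0.64 (SE 0.20, edgeR adjusted p = 0.114; limma-voom adjusted p = 0.0489).

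Genes flanking the clusters were not called by edgeR either. Of 21 tested neighbours, 5 at the Hoxa, 6 at the Hoxb, 7 at the Hoxc and 3 at the Hoxd cluster, edgeR, limma-voom and DESeq2 (with an adjusted p for 18) called 0. An unadjusted edgeR p under 0.05 was found for 5 of the 21, where 11.6% of all tested genes had one. By cluster that share was 20% for Hoxa, 33.3% for Hoxb, 28.6% for Hoxc and 0% for Hoxd neighbours. The median log2 fold change was -0.13 for Hoxa, 0.06 for Hoxb, 0.41 for Hoxc and -0.24 for Hoxd neighbours, and the smallest p was that of Calcoco2 beside the Hoxb cluster (0.91, SE 0.29, edgeR adjusted p = 0.112). Of 15 non-coding genes named for the clusters, 2 entered the test and 0 were called by edgeR, limma-voom or DESeq2, which gave an adjusted p for 1, with 1 at an unadjusted p under 0.05, and 3 microRNA genes (Mir196a-1, Mir196b and Mir615) had no read in any library. Halr1, a long non-coding RNA gene beside the Hoxa cluster, was well above any Hox gene per length, at 24.2 and 20.5 CPM per kb in G784E and 9.29 and 15.7 CPM per kb in WT. Both G784E libraries were above both WT libraries, with a log2 fold change of 0.82 (SE 0.29, edgeR adjusted p = 0.187). Without 1 library its adjusted p ran from 0.0430 (without G784E replicate 2) to 1.00 (without WT replicate 1, log2 fold change 0.50), and DESeq2 gave 0.391 and limma-voom 0.114. Hottip, the non-coding gene at the posterior end of the Hoxa cluster, had 15 and 4 reads in G784E and 10 and 7 in WT.

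**Figure D5:**
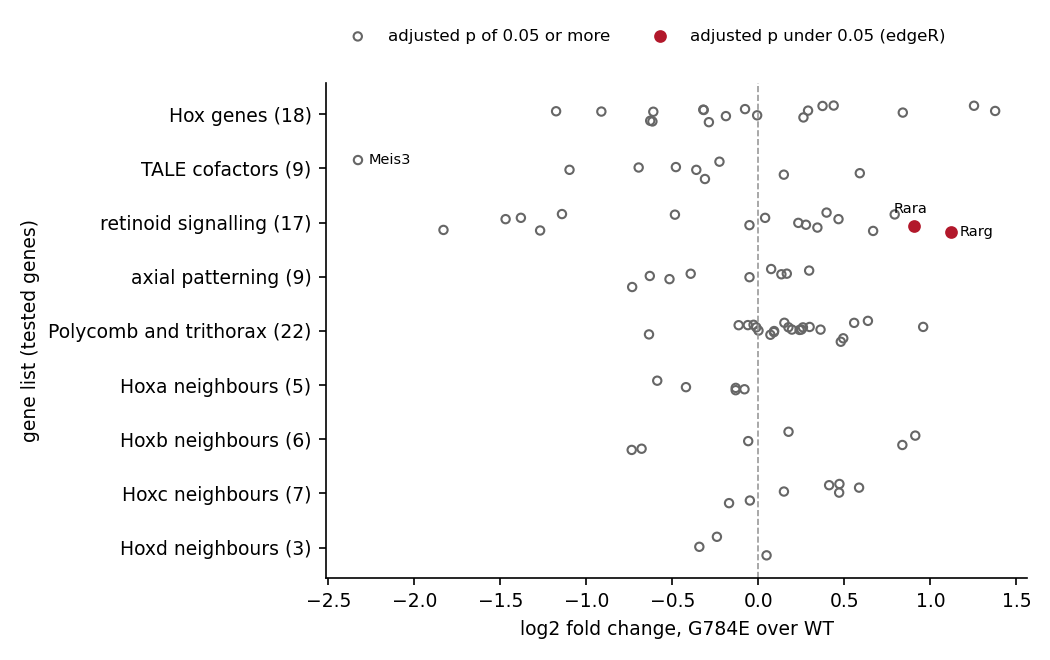
Fitted log2 fold change of G784E over WT for the tested members of each gene list (1 point per gene, with the number tested in brackets). Filled points are the 2 genes past an adjusted p of 0.05, Rara at 0.90 and Rarg at 1.12; open points are not called, with Meis3 farthest to the left at -2.33.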

How the data were processed

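RNA-seq of mouse ES cells gave 2 G784E and 2 WT libraries, grouped by their labels. Per the labels' protocols, poly(dT) capture enriched mRNA, which was copied into DNA and amplified after a size selection, although the library source is listed as genomic. For each library the authors deposited 1 table of raw gene counts. The submitters' processing notes name the tools HTSeq, DESeq2, Bowtie2 2.1.0 and CASAVA 1.8.2 and the genome build mm9. Annotation, counting mode, strandedness and the sequence of steps were not given in the sources used here. Summary lines of the tables (not unique, no feature, ambiguous) held 88.3% and 83.8% of reads in G784E and 88.7% and 83.3% in WT, and entered neither library sizes nor tests. Reads that fit several near-identical genes are therefore missing from the counts.

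Counts were scaled by TMM, filtered with filterByExpr at its defaults (minimum count 10, minimum total 15), which kept 15763 genes, and tested with edgeR 4.0.16 (R 4.3.3, quasi-likelihood F test, no covariate) with Benjamini-Hochberg adjustment over all tested genes at a threshold of 0.05. DESeq2 1.42.0 and limma 3.58.1 (voom) served as alternatives, beside other scalings and filters, a replicate block, and each library left out in turn. Levels are CPM of TMM-scaled library sizes, with SD over the 2 libraries of a group, and sums over members received no test. Libraries of a group differed by more than sampling noise (chi-square per degree of freedom 15.4 in G784E and 9.22 in WT) and were kept apart. Exon lengths and overlaps came from GENCODE M21 and promoters from RefSeq GRCm38.p6, a build other than that of the files, matched by symbol; coordinates are given for the printed promoters alone.

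Values in every library were given for the 3 Hox genes with the highest mean CPM in each cluster and the 3 with the smallest p in each direction. Other lists were reported by the genes called and the gene with the smallest p. The members and lists were chosen with earlier results of these data known. Stra6, Cyp26a1, T, Hottip and Hoxb5os were named after their values were seen. Values of 1 Hox gene are not reported here, though it enters the sums and counts.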

Additional observations from a re-analysis of the deposited data

How the results depend on the processing

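No Hox gene was called under any of the 13 alternatives, but DESeq2 gave an adjusted p for 1 of the 18 tested. The log2 ratios of the summed levels moved by less than the spread between replicates, which is wide. With 1 library left out such a move cannot exceed the gap between a group's replicates, so it is no measure of robustness. Those ratios ran from -1.27 to 0.62 for all 39 genes, -1.52 to 0.65 for Hoxa and -1.07 to 0.18 for Hoxb. For Hoxc they ran from -1.53 to 0.24 and for Hoxd from -0.90 to 1.22. With 1 library left out, the log2 fold change ran from -6.54 to 0.45 for Hoxa2, -0.41 to 2.57 for Hoxa3, -1.42 to 1.20 for Hoxa5, -2.50 to 0.61 for Hoxa7, -2.50 to 1.34 for Hoxa9 and -4.47 to 0.42 for Hoxa11. It ran from -0.80 to 0.84 for Hoxb3, -1.13 to 0.35 for Hoxb9, -0.77 to 1.24 for Hoxc4, -2.72 to 1.00 for Hoxc5, -1.93 to 2.42 for Hoxc12 and -1.48 to 1.07 for Hoxc13. For Hoxd9 it ran from -2.18 to 3.21, for Hoxd11 from -0.45 to 1.86, for Hoxd13 from -1.26 to 0.29, for Cdx2 from -2.14 to 1.78 and for Pou5f1 from -0.20 to 0.24. Under limma-voom the sign turned for Hoxa5 (-0.27), Hoxb3 (0.19), Hoxc4 (0.36), Hoxc13 (-0.49) and Cdx2 (-0.20), and upper-quartile scaling gave 0.0116 for Hoxc5. Pou5f1 stood at -0.0282 with no filter and -0.0236 without the ribosomal RNA gene Rn45s. Turns seen with 1 library left out cannot be told apart from the replicate difference, and the cause of the others was not tested. Over all genes, 298 lower and 106 higher calls became 156 to 532 and 29 to 307 with 1 library left out, both lowest without WT replicate 1 and highest without G784E replicate 2, and limma-voom gave 186 higher. Same-numbered libraries deviated together (Pearson 0.476 over 15763 genes, 2 pairs), but the labels name no shared batch, so the pairing is not part of the design. The replicate block gave 658 lower and 546 higher calls, 0 of them Hox genes, and turned Hoxc4 (0.16), Hoxc13 (-0.11) and Cdx2 (-0.0233). Of the other genes on the lists it called Meis3 (0.00540), Lin28a (0.0294) and Foxa2 lower and Pcgf2 (0.00365), Jarid2, Phc1, Calcoco2 (0.0401), Copz1 (0.0113), Calcoco1, Nanog (0.00510) and Smarca4 (1.59e-05) higher, with the adjusted p in brackets, none of them called in the same edgeR fit without the block. Per coding length, 8 in place of 4 Hox genes of G784E replicate 2 passed the olfactory receptor 95th percentile. Depth limits every Hox result: 21 of 39 genes were not tested.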
